A study of Mus musculus with 7 samples.

Results

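The 10 epithelial keratin genes described here are Krt5, Krt14, Krt8, Krt18, Krt15, Krt17, Krt19, Krt7, Krt6a and Krt75. They are given by name and are 10 of the 53 keratin genes and of the 21887 protein-coding genes in RefSeq's mouse gene table (GRCm38.p6). Open chromatin around them was read from peak lists made by ATAC-seq, an assay whose transposase inserts sequencing adapters where DNA is free of nucleosomes. For each gene, the peaks inside the gene body or within 20 kb of it were collected from each of the 7 deposited lists. A peak in the flanks of several members was given to the nearest one, except in the counts per window, where it counted for each of them.

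The series holds 7 libraries in 5 groups. Ectoderm was peeled from the first pharyngeal arches of mouse embryos at embryonic day 11.5 after treatment with Dispase II, and gave 2 libraries. Sox2-positive cells were sorted from the dissociated labial cervical loop of lower incisors at postnatal day 2 (P2), and also gave 2 libraries. The labels call them DESC, for dental epithelial stem cell, and name the mouse line Sox2-GFP, in which the endogenous Sox2 promoter drives the fluorescent protein. Whole teeth at P2 gave 1 library each for the lower incisor, the first lower molar and the first upper molar, so nothing about a single tooth has a replicate check. The labels give no genotype or strain beyond that line, and do not say whether the other groups carried it or whether animals were pooled. Whole teeth hold mesenchyme, vessels and blood as well as epithelium. In such bulk samples, fewer cells of a type and less open chromatin per cell cannot be told apart.

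Keratins are the intermediate filament proteins of epithelial cells. A filament is built from pairs of an acidic type I and a basic type II keratin, and most genes of each type lie side by side in one cluster. Basal cells of layered epithelia are known for the pair Krt5 and Krt14, simple and early embryonic epithelia for Krt8 and Krt18. Skin ectoderm is known to pass from the simple to the basal pair as it stratifies. Krt15 is a further basal type I keratin, Krt19 and Krt7 are simple keratins, and Krt17, Krt6a and Krt75 are known from hair follicles, other epithelial appendages and wounded skin. Of the members, Krt14, Krt15, Krt17 and Krt19 lie on chromosome 11. The type II genes lie on chromosome 15, together with Krt18, the type I gene that sits beside Krt8 and outside the type I cluster.

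RefSeq promoter windows of GRCm38.p6, each holding 250 bases before and 50 bases after a start, were found for 6 of the 10 members. The 250 bases before the start are printed below for 5 of them, 5′ to 3′ on the strand of the gene, because a peak over this window is the measure of an open start used throughout. Krt14 was matched as well, but its window in that table lies 1.48 kb inside the annotated gene and its bases are not printed. Capitals mark matches on either strand to 3 of the 6 motifs searched, namely GGGCGG, GCCNNNGGC and ATAAAAG.
Krt5, chr15:101712906-101713155, minus strand: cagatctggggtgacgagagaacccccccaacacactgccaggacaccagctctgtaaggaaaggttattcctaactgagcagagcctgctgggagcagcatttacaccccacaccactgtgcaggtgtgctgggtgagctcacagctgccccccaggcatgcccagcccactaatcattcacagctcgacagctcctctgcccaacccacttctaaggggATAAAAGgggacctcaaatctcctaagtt
Krt8, chr15:102004343-102004592, minus strand: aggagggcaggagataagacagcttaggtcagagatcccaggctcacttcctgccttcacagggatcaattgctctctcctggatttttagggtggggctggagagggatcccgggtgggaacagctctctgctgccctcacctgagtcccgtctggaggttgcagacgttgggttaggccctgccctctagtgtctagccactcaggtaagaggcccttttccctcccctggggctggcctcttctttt
Krt18, chr15:102027966-102028215, plus strand: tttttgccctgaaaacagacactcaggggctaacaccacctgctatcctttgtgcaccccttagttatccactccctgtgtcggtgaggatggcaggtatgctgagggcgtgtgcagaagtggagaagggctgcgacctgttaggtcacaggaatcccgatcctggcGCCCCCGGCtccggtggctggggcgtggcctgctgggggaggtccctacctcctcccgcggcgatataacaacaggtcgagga
Krt7, chr15:101412153-101412402, plus strand: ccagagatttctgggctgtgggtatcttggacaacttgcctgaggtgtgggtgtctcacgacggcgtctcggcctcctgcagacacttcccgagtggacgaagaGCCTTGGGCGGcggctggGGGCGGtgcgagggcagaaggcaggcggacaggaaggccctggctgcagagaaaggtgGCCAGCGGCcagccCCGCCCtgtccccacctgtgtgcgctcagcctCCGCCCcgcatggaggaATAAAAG
Krt75, chr15:101573905-101574154, minus strand: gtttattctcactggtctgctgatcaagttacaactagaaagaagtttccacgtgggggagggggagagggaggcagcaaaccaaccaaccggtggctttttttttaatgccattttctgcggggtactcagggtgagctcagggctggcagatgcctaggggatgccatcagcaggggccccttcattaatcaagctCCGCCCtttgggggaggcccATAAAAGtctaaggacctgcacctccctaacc

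The letters ATAAAAG, chosen after these sequences were seen, lay 29 bases before the start of Krt5, 32 before that of Krt75 and 7 before that of Krt7, counted from the first base of the match. In Krt8 they matched the opposite strand across the start, where TATAAA, which overlaps them, also lay. The string was present in 4 of 6 member windows and in 5.42% of all 32851 windows of the table. GGGCGG, the core of a GC box, occurred 4 times before Krt7 and once before Krt75, and in 35.7% of all windows. GCCNNNGGC, a form of the site known for Tfap2 factors, occurred before Krt18 and at 2 places before Krt7, and in 16.6% of all windows. TATAAA was found in 1 member window and 13.6% of all windows. CCAAT and TGANTCA were found in 0 of 6 member windows and in 37.4% and 7.81% of all windows. A match describes these letters and no factor was measured. In the terms of open starts given below, and in the full lists, Krt7 with its 4 GC boxes was open at its start in both ectoderm libraries and in no P2 library. Krt75, where GGGCGG occurred once, was open in 3 libraries. Krt5, Krt14, Krt8 and Krt18, with none, were open in 6, 7, 7 and 5 of 7 libraries. For Krt14 both the letters and the call are those of its window 1.48 kb inside the gene. A link between these letters and open starts was not tested.

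The lists differed in length, from 39017 and 42606 peaks in the Sox2-positive libraries to 82461 in ectoderm replicate 1, with 50792 in ectoderm replicate 2, 63040 in incisor and 70000 and 68307 in lower and upper molar. Sequencing depth is unknown, because the lists hold no read counts. The main counts are therefore given for the full lists and again for the 38000 autosomal peaks per list that had the highest −log10 p, called equal-length lists below. Of the 6 epithelial marker genes Epcam, Cdh1, Esrp1, Grhl2, Cldn4 and Rab25, 6 had an open start in every library except the incisor, where 3 did (Epcam, Cldn4 and Rab25 did not). With equal-length lists 6 of them were open in the ectoderm and Sox2-positive libraries, 5 in each molar and 2 in incisor. The 6 mesenchyme markers had 3 and 4 open starts in ectoderm, 4 and 5 in the Sox2-positive libraries, 5 in incisor, 5 in lower molar and 6 in upper molar. Over equal-length lists the mesenchyme markers had 1 and 2 open starts in ectoderm, 4 and 5 in the Sox2-positive libraries, 5 in incisor and 2 in each molar. The 5 endothelial markers had 1 to 3 open starts in the full and 0 to 2 in the equal-length lists, and the 5 blood and immune markers 2 in every full list. All 5 dental epithelial stem cell markers were open at their starts in every full list. The share of these other cell types in the keratin results was not tested.

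With a start defined as follows, more keratin starts were called open in the ectoderm libraries than in the Sox2-positive libraries and the incisor. A start was called open where a peak covered at least 1 bp of the 300-base promoter window, or, for Krt15, Krt17, Krt19 and Krt6a, which were not matched to a window, came within 1 kb of either gene end. The full lists had 10 and 9 open member starts in ectoderm, 4 and 6 in the Sox2-positive libraries, 4 in incisor, 7 in lower molar and 8 in upper molar. Among all protein-coding genes the shares were 64.4% and 62.5% in ectoderm, 56.1% and 55.2% in the Sox2-positive libraries, 58.8% in incisor, 60.0% in lower molar and 59.9% in upper molar. The keratin starts thus ranged from 4 to 10 of 10 where the share over all genes moved by less than 10 percentage points. With equal-length lists the counts were 8 and 8 in ectoderm, 3 and 6 in the Sox2-positive libraries, and 3 in each whole tooth. The matching shares of all genes were 59.3% and 61.2%, 56.5% and 56.6%, and 55.3%, 55.3% and 55.4%. With these definitions, the ectoderm counts were above both Sox2-positive counts and above every tooth count in both forms of the lists. The order rests on unlike windows, because the 4 unmatched members had a wider one than the others. A peak within 1 kb also need not cover the gene end, and no ectoderm peak covered the higher-coordinate end of Krt17. The molar counts were the ones that changed most with list length. Members open in all 7 libraries were 3 of 10 in the full lists (Krt14, Krt8 and Krt17), against 52.3% of all genes, and 1 of 10 in the equal-length lists (Krt14), against 49.9%. The Krt14 call rests on its window 1.48 kb inside the gene. Over the annotated 5′ end, neither ectoderm library nor Sox2-positive replicate 1 had a peak, while all 7 libraries had one within 1 kb of that end. With 2 libraries against 2, the smallest two-sided p of an exact permutation test is 0.333, so no test between the groups was made.

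Peaks over the whole window, the gene body with 20 kb on either side, were counted next. Here a peak shared by the windows of several members counted for each of them, as it did for all genes. Given to the nearest member only, the ectoderm peaks of the full lists were 10 and 9 for Krt8 and 8 and 5 for Krt18. For Krt8 the full lists held 13 and 10 peaks in ectoderm, 6 and 6 in the Sox2-positive libraries, 7 in incisor and 9 in each molar. For Krt18 they held 10 and 7 in ectoderm, 3 and 2 in the Sox2-positive libraries, 1 in incisor, 3 in lower molar and 4 in upper molar. These are the partners of the simple pair, and in both the ectoderm counts of the full lists lay above those of every P2 library. The equal-length lists held 10 and 7 Krt8 peaks in ectoderm against 5 to 7 at P2, so that ectoderm replicate 2 and upper molar were level, and 7 and 6 Krt18 peaks in ectoderm against 0 to 3. For Krt14 the counts were 5 and 3 in ectoderm, 4 and 5 in the Sox2-positive libraries, 7 in incisor and 8 in each molar. For Krt17 they were 1 and 1 in ectoderm, 2 and 2 in the Sox2-positive libraries, 4 in incisor, 6 in lower molar and 7 in upper molar. Here the teeth, and not the ectoderm, had the most peaks. The equal-length lists held 3 and 3 Krt14 peaks in ectoderm, 4 and 5 in the Sox2-positive libraries and 7 in each tooth. For Krt17 they held 1 and 1, then 1 and 2, with 1 in incisor and 4 and 5 in the molars.

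Both ectoderm counts exceeded both Sox2-positive counts for 6 of 10 members (Krt5, Krt8, Krt18, Krt15, Krt19 and Krt7), against 33.0% of all genes. The reverse held for 1 member, Krt17, against 3.66% of all genes. In the equal-length lists the ectoderm was higher for 5 members (Krt8, Krt18, Krt15, Krt19 and Krt75), against 17.4% of all genes, and the Sox2-positive cells for 1, Krt14, against 14.3%. In these window counts the order was thus the same in both forms of the lists for Krt8, Krt18, Krt15 and Krt19, while that of Krt5, Krt7, Krt75, Krt17 and Krt14 depended on the list length. For Krt5 the equal-length counts overlapped, at 6 and 4 in ectoderm against 1 and 5 in the Sox2-positive libraries. The windows of Krt15 and Krt19, of Krt6a and Krt5, and of Krt8 and Krt18 overlap and share peaks, so these counts are not independent. Krt15 and Krt19 had the same count in every library. With each shared peak given to the nearest member only, Krt8, Krt18 and Krt19 kept this order in both forms of the lists. Krt15 did not, with 3 and 1 peaks in ectoderm against 0 and 1 in the Sox2-positive libraries of the full lists. Its equal-length counts were then 1 and 1 against 0 and 1. The members are short genes, with a median body of 4.97 kb against 17.2 kb over all genes, and the median window of all genes held 2 to 4 peaks in the full lists.

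**Figure D1:**
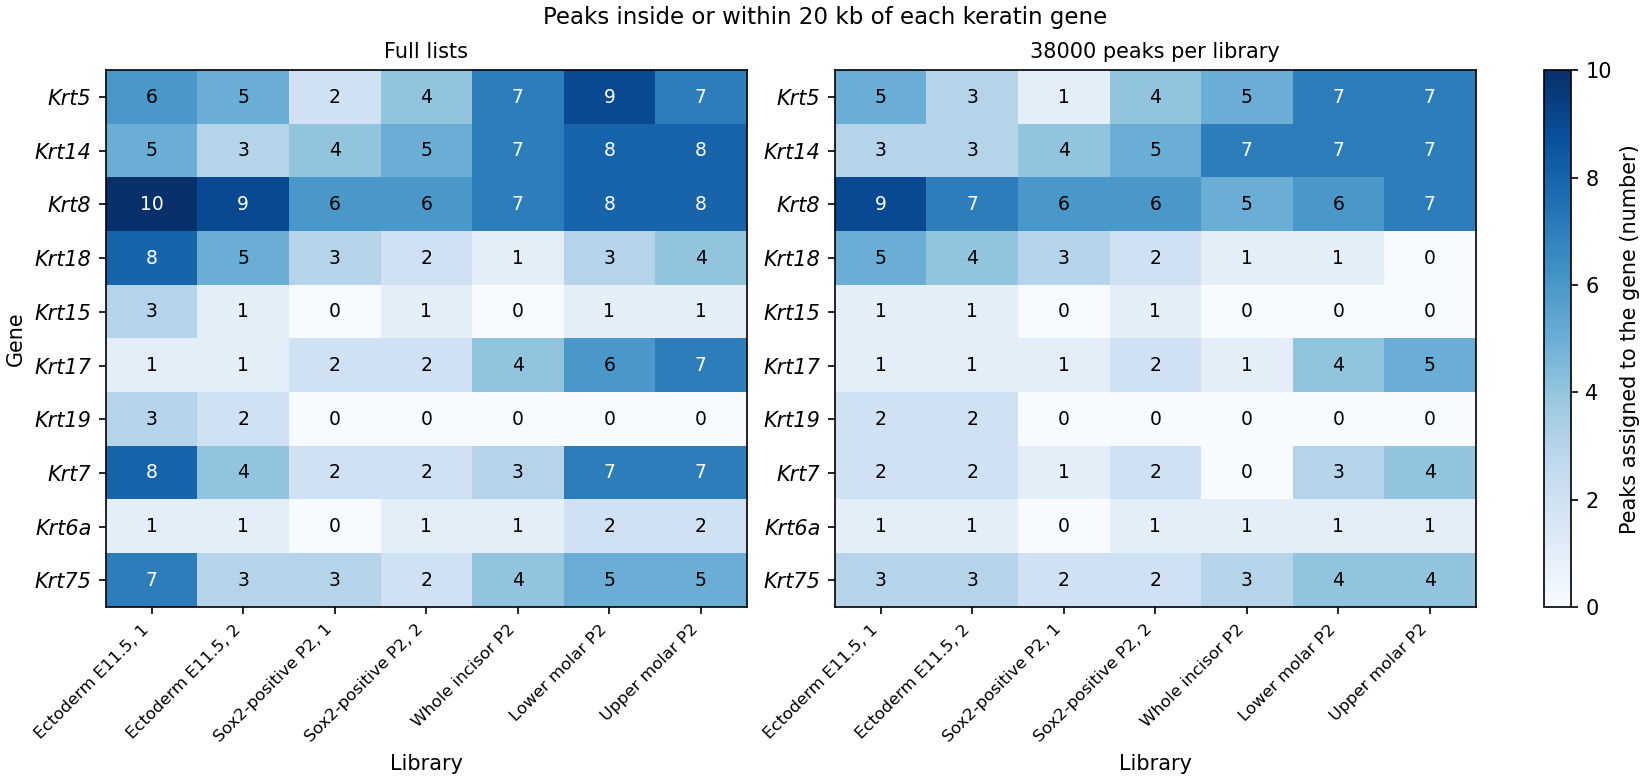
Peaks inside or within 20 kb of each keratin gene (rows) in each of the 7 libraries (columns), for the full lists and for 38000 peaks per library. Each peak is given to the nearest member only, and each cell is coloured by the count printed in it. Krt18 and Krt19 have their highest counts in the ectoderm columns of both panels, and Krt8 in those of the full lists. For Krt15 only ectoderm replicate 1 of the full lists stands above every other library. Krt17 has its highest counts in the molar columns, 6 and 7 in the full lists.

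In the full lists, both genes of the basal pair had 2 regions with a peak in every library, beside regions that only some groups had. To compare positions, peaks of all 7 lists that shared at least 1 bp were joined into regions, and the values given for a library are the authors' deposited peak signals. These signals are areas under a significance curve, are not normalized between libraries, and rank peaks only within a list. Within Krt14 one region, chr11:100205094-100206982, had a peak in every library. Its signal was 3649 and 3708 in ectoderm, 2230 and 1960 in the Sox2-positive libraries, 2242 in incisor, 4550 in lower molar and 4675 in upper molar. This was the keratin peak with the highest signal in both molars and in Sox2-positive replicate 1, and the next after Krt17 in both ectoderm libraries. It holds the Krt14 window of the promoter table. The annotated 5′ end of the gene lies 1.48 kb further along, under a separate region at chr11:100207249-100208222.

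That end region of Krt14 had a peak in Sox2-positive replicate 2 (signal 595), incisor (1124), lower molar (1285) and upper molar (782). The ectoderm libraries and Sox2-positive replicate 1 lacked it, in the full and the equal-length lists. Beyond it, chr11:100208381-100209639 had a peak in all 7 libraries, with signals of 2276 and 2067 in ectoderm, 863 and 963 in the Sox2-positive libraries, 1434 in incisor and 2927 and 2625 in the molars. Next to this shared region, 2.39 kb upstream of the gene, lay chr11:100209650-100210152. It had a peak in all 5 P2 libraries, at 489 and 818 in the Sox2-positive libraries, 786 in incisor and 1131 and 1014 in the molars, and in neither ectoderm library. A second region of this kind, chr11:100221669-100222286 and 14.47 kb upstream, had signals of 424 and 448, then 902, 923 and 920, again with none in ectoderm. Both were in the equal-length lists of the same 5 libraries. A further region 7.99 kb upstream, chr11:100215211-100215784, had a peak in the 3 whole teeth only (478, 1073 and 930). On the other side of the gene, 6.67 kb away, chr11:100196074-100196906 had a peak in both ectoderm libraries (1256 and 704) and in no P2 library. The nearest gene to that region is Krt9.

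**Figure D2:**
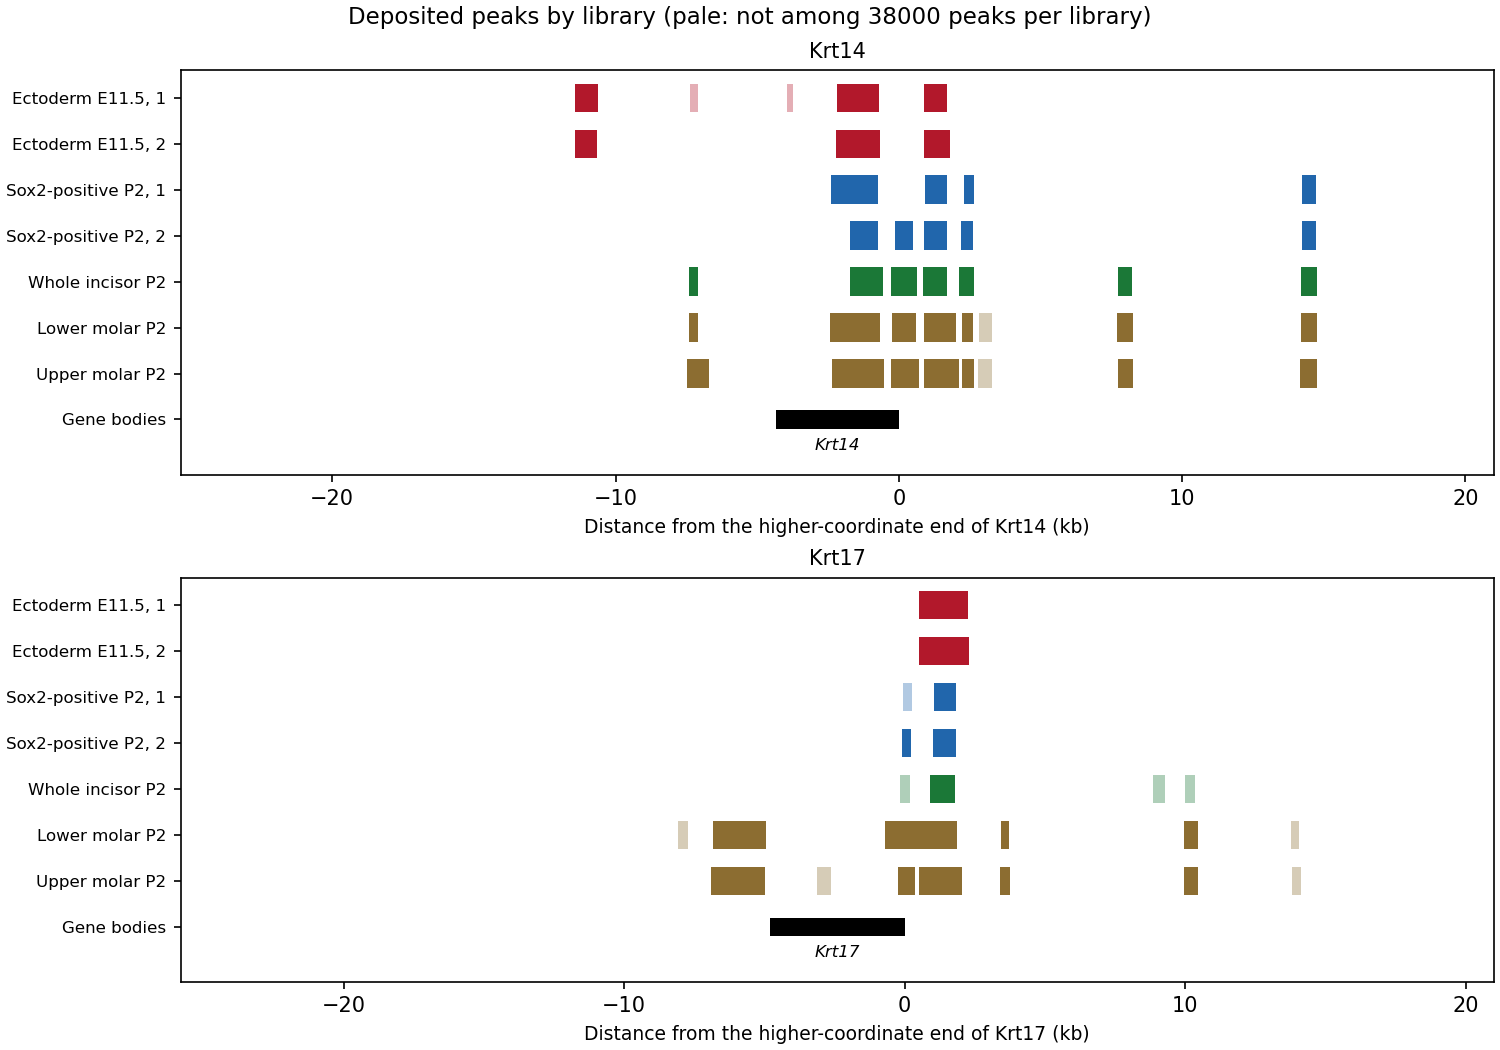
Deposited peaks of the 7 libraries (rows) around Krt14 and Krt17, drawn to scale by distance in kb from the higher-coordinate end of the gene, with pale bars for peaks outside the 38000 of that library and black bars for gene bodies. At Krt14 the bars at 2.39 and 14.47 kb are present in the 5 P2 libraries and missing in both ectoderm libraries, and at Krt17 the bars left of the gene are in the molars.

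At the Krt5 start, printed above, the peaks of the molars were far wider than those of the other libraries. The region chr15:101712027-101714715 had a peak in every library. In lower molar it was a single peak of 2054 bp (signal 3769) and in upper molar one of 2444 bp (signal 3909), with summits 0.10 kb beyond the gene end. In the ectoderm libraries, Sox2-positive replicate 2 and incisor it was split, and in Sox2-positive replicate 1 it held a single peak of 549 bp. The peak over the start itself was 445 and 448 bp wide in ectoderm (signals 590 and 244), 343 bp in Sox2-positive replicate 2 (439), 611 bp in incisor (690), and not listed in Sox2-positive replicate 1. A neighbouring peak with its summit 0.92 to 0.99 kb upstream was listed in all 5 of these libraries, with signals of 693 and 421 in ectoderm, 578 and 803 in the Sox2-positive libraries and 914 in incisor. Krt5 was therefore open at its start in 6 of 7 libraries in the full lists and in 5 in the equal-length lists, where ectoderm replicate 2 was also missing. Within 1 kb of the gene end, all 7 libraries had a peak.

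The remaining Krt5 regions differed between the groups. Both molars, and no other library, had a peak of 1803 and 1696 bp over the opposite end of the gene, chr15:101705874-101707738 (signals 1515 and 1635). Within the gene, chr15:101710566-101711760 had a peak in Sox2-positive replicate 2 (205), incisor (557) and molars (1037 and 1270). A small region at chr15:101704028-101704399, 2.86 kb past that opposite end, was in all 7 full lists, with signals from 254 to 883. The equal-length lists kept it in ectoderm replicate 1, Sox2-positive replicate 2 and the molars. Regions 4.52 and 20.03 kb upstream of the start had peaks in ectoderm and all 3 teeth and in neither Sox2-positive library. The farther of these, chr15:101732646-101733217, had signals of 1416 and 743 in ectoderm, 375 in incisor and 983 and 893 in the molars. The gene nearest to it is Krt71.

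Krt15, the other basal keratin, had its main peak in ectoderm. The region over its higher-coordinate end, chr11:100135719-100137520, had signals of 3475 and 2973 in ectoderm, 266 in Sox2-positive replicate 2, and 206 and 296 in lower and upper molar. Sox2-positive replicate 1 and incisor had no peak there. The ectoderm peaks were 1754 and 1802 bp wide, the others 310 to 492 bp. In ectoderm replicate 1 only the Krt17 and Krt14 peaks had a higher signal, and in the equal-length lists only ectoderm and Sox2-positive replicate 2 kept it. The other 2 regions given to Krt15 were listed in ectoderm replicate 1 alone.

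Krt19, a simple type I keratin that lies 4.86 kb from Krt15, had peaks in ectoderm and in no P2 library. The region inside the gene near its higher-coordinate end, chr11:100144725-100145693, had signals of 1658 and 1064 in the ectoderm libraries. The region in the gap towards Krt15, chr11:100138646-100139925, had signals of 1454 and 812. A further region over the gene end itself was listed in ectoderm replicate 1 only (729). No peak of any P2 library was assigned to Krt19, in the full or the equal-length lists. The pattern of a start open in both ectoderm libraries and in no other was shared by 621 genes, or 2.84% of all genes.

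The simple pair Krt8 and Krt18 was open in all groups on the Krt8 side. On the Krt18 side the regions before and at the start were mainly in ectoderm, while farther regions past the gene also had P2 peaks. In the full lists Krt8 had 5 regions with a peak in every library, the most of any member, of the 11 such regions in all. At the Krt8 start, chr15:102002788-102004785 held a start peak in each library. The peak over the start had signals of 2001 and 2319 in ectoderm, 317 and 344 in the Sox2-positive libraries, 222 in incisor and 352 and 340 in the molars. Inside the gene, 1.24 to 1.28 kb from the start, a separate summit had signals of 1871 in ectoderm replicate 1, 1108 and 968 in the Sox2-positive libraries, 1190 in incisor and 805 and 609 in the molars. In ectoderm replicate 2 both lay under one peak of 1946 bp. In ectoderm replicate 1 the start peak had the higher signal of this pair, and in all 5 P2 libraries the inner peak did. The start peak was kept in the equal-length lists of the ectoderm and Sox2-positive libraries and lost in the 3 teeth.

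Upstream of Krt8, chr15:102004881-102008157 was likewise open in every library, with summits at different places. In ectoderm the peak at 1.29 kb from the gene had signals of 3472 and 3228, and a narrower peak at 3.36 and 3.33 kb had 609 and 379. At P2 the peak with its summit 2.84 to 3.33 kb upstream had signals of 2044 and 1991 in the Sox2-positive libraries, 2885 in incisor and 3014 and 3371 in the molars. The nearer summit was listed with 225 in incisor and 875 and 726 in the molars, and not in the Sox2-positive libraries. Within each list the nearer peak was thus the higher in both ectoderm libraries and the farther peak in all 5 P2 libraries. The other 3 regions shared by all libraries lay 12.59, 15.69 and 19.24 kb past the other end of Krt8, inside Krt78. The first of them, chr15:101983255-101984986, had signals of 2419 and 2178 in ectoderm, 1458 and 2082 in the Sox2-positive libraries, 2479 in incisor and 2726 and 2913 in the molars. It was the keratin peak with the highest signal in Sox2-positive replicate 2. The others, chr15:101980540-101981509 and chr15:101976821-101978126, had signals from 224 to 1882 and from 1064 to 2563.

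The 23.9 kb between Krt8 and Krt18 hold no other gene. Of the regions there, 3 had a peak in both ectoderm libraries and in no P2 library. These were chr15:102013486-102014087 (1258 and 407), chr15:102015952-102016491 (1365 and 527) and chr15:102016636-102017280 (714 and 484). Another, 2.66 kb before the Krt18 start at chr15:102024960-102026150, had 2387 and 1686 in ectoderm and 300 in Sox2-positive replicate 2. Of the signals in the regions given to Krt18, these were the highest in both ectoderm libraries.

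The Krt18 start, printed above, lies in chr15:102027948-102029342. The peak over it had signals of 1463 and 1013 in ectoderm, 437 and 284 in the Sox2-positive libraries and 245 in upper molar, and none was listed in incisor or lower molar. Both molars had a peak 0.82 and 0.83 kb inside the gene (332 and 373). Past the other end of the gene, chr15:102034506-102035085 was open in ectoderm only (1074 and 448). Farther out, chr15:102041952-102042538 had 209 in ectoderm replicate 1, 358 in Sox2-positive replicate 1, 702 in incisor and 681 and 549 in the molars. Its ectoderm and upper molar peaks were not in the equal-length lists. The region chr15:102051867-102052802 had 1445 and 1069 in ectoderm, 392 in Sox2-positive replicate 2, 334 in incisor and 464 and 370 in the molars. The Krt18 start was thus open in 5 libraries in the full lists, and in the equal-length lists in the ectoderm and Sox2-positive libraries. In the full lists this start region was the only region of any member that both Sox2-positive libraries had and the incisor did not.

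Krt7, a simple type II keratin, had a start that was open in ectoderm only, and inner regions of which some were listed in ectoderm and some at P2. The region chr15:101410591-101412663 covered its start and the DNA before it. A peak with its summit 1.37 to 1.43 kb upstream had a signal of 1930 in ectoderm replicate 1, 362 in incisor, 551 in lower molar and 874 in upper molar. In ectoderm replicate 2 one peak of 2073 bp (2143) ran from there over the start, and in replicate 1 a peak of 373 bp (444) covered the start, which the equal-length list of replicate 1 no longer held. No Sox2-positive library had a peak in this region. Inside the gene, chr15:101414701-101415672 had signals of 905 and 558 in ectoderm and 403 and 735 in the molars, with none in the Sox2-positive libraries or incisor. A neighbouring region was listed in ectoderm replicate 1 alone (349). Farther in, chr15:101418982-101419958, 7.07 kb from the start, had signals of 754 and 542 in the Sox2-positive libraries, 314 in incisor and 1375 and 1356 in the molars, and no ectoderm peak. The equal-length list of the incisor no longer had it. A region 15.55 kb before the gene, chr15:101396488-101397226, had peaks in ectoderm (1328 and 772) and molars (711 and 683). A weak one 13.9 kb before it, chr15:101398319-101398681, had peaks in the Sox2-positive libraries (243 and 239) and incisor (423) only. Of the latter, the equal-length lists kept the peak of Sox2-positive replicate 2 alone.

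The appendage keratins followed, with several peaks listed only in teeth. Krt17 is induced in wounded skin and known from hair follicles and tooth germs. Around it, the region chr11:100260338-100263332 had a peak in every library, and its strongest summit lay 1.25 or 1.26 kb beyond the higher-coordinate end of the gene, towards Krt42. Signals at this summit were 4412 and 4193 in ectoderm, 1475 and 1634 in the Sox2-positive libraries, 1344 in incisor, 3930 in lower molar and 2941 in upper molar. In both ectoderm libraries this was the keratin peak with the highest signal. The gene end itself was under separate peaks in the Sox2-positive libraries (284 and 297), incisor (297) and upper molar (962), and under the same single peak of 2538 bp in lower molar. In ectoderm no peak covered it. At the opposite end, 1.11 kb from the gene, chr11:100254127-100256080 had peaks of 1875 and 1914 bp in lower and upper molar (2231 and 1678) and in no other library. A region 10.2 kb away, chr11:100270985-100271475, was listed in the 3 whole teeth (335, 1107 and 1029), and in the equal-length lists in the molars.

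Krt6a, a type II keratin induced in wounded and proliferating epithelium, lies 12.8 kb from Krt5. Its near-identical neighbour Krt6b means that reads there may not have been placed uniquely, and the filter used for such reads is not given in the sources used here. The region over the higher-coordinate end of Krt6a, chr15:101694298-101695336, had signals of 1165 and 541 in ectoderm and 513 and 230 in the molars, and no peak in the Sox2-positive libraries or incisor. The only other region given to it, 3.54 kb away at chr15:101697466-101698229, had signals of 490 in Sox2-positive replicate 2, 684 in incisor and 1492 and 1521 in the molars, with none in ectoderm. Among the equal-length lists the first was kept in ectoderm alone and the second in the same 4 P2 libraries.

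Krt75, a hair follicle keratin that is also known from enamel, had few peaks over its own body. Its start, printed above, was open in ectoderm replicate 1 (254), lower molar (348) and upper molar (218), and in none of the equal-length lists. The region near its other end, chr15:101563915-101564728, had signals of 338 in ectoderm replicate 1, 479 in incisor and 1035 and 893 in the molars, and in the equal-length lists it was in the 3 teeth only. In the 5 P2 lists the peak with the highest signal in its window lay 18.65 kb away inside Krt82, at chr15:101544153-101545231. There the signals were 1806 and 1984 in the Sox2-positive libraries, 2906 in incisor and 3799 and 3802 in the molars, against 300 in ectoderm replicate 1 and no peak in ectoderm replicate 2. It was the keratin peak with the highest signal in incisor, and in the equal-length lists it was in all 5 P2 libraries and in neither ectoderm library. The nearest gene is Krt82, so the link to Krt75 is by distance only. A region inside Krt90, chr15:101553101-101553631, was open in all 7 libraries with signals from 223 to 1081, and had the highest signals of the window in ectoderm (1081 and 721).

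**Figure D3:**
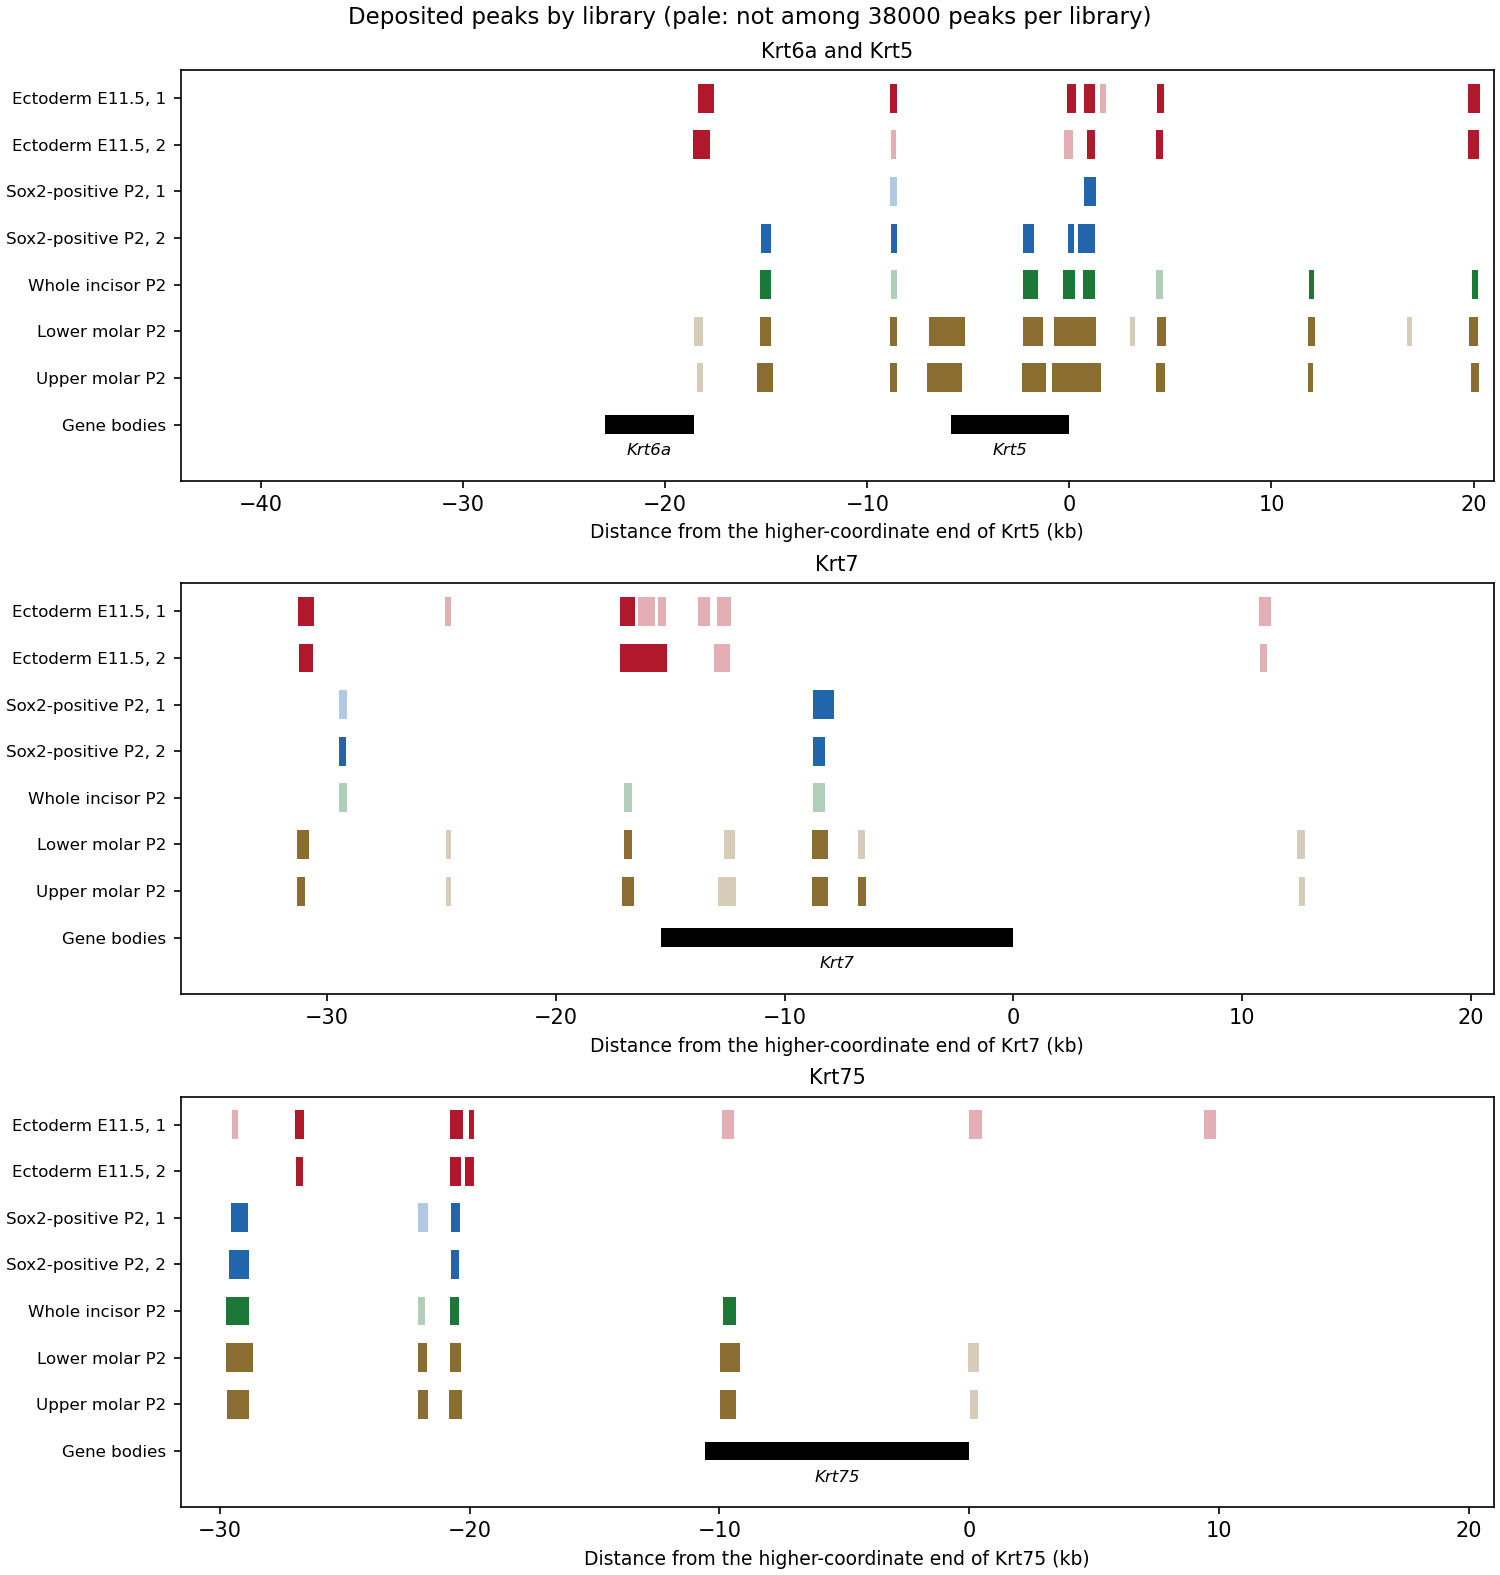
Deposited peaks of the 7 libraries (rows) around Krt6a and Krt5, around Krt7 and around Krt75, drawn to scale by distance in kb, with pale bars for peaks outside the 38000 of that library and black bars for gene bodies. The molar bars over the Krt5 start are the widest there, at 2054 and 2444 bp, and the bar 18.65 kb from Krt75 is present in all 5 P2 libraries.

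The other genes of the keratin system were open at their starts in most libraries. Of 13 partners that tie keratin filaments to desmosomes and hemidesmosomes, such as Dsp, Pkp1, Jup, Itgb4 and Col17a1, 13 and 13 had an open start in ectoderm. The counts were 10 and 11 in the Sox2-positive libraries, 10 in incisor and 12 in each molar. Of 13 genes for factors known to act on keratin genes, such as Trp63, Klf4, Grhl3 and Tfap2a, 12 and 12 were open at their starts in ectoderm, 10 and 9 in the Sox2-positive libraries, 10 in incisor and 10 and 11 in the molars. In the equal-length lists the regulators had 5 open starts in incisor and 9 to 12 elsewhere, and the partners 10 to 13 in all libraries. Both lists thus had their highest counts in ectoderm, as the members did, but with 9 or more of 13 open in every full list.

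Over all 10 members the 7 lists formed 69 regions, of which 12 were listed in a single library, 37 lay between genes and 20 had a gene outside the members as their nearest gene. Regions listed in ectoderm replicates 1 and 2 but in no Sox2-positive list were 17 of the 54 regions found in these 4 libraries, or 31.5%, against 23.3% of all such regions in the genome. The reverse class held 4 of 54, or 7.41%, against 7.6%. In the equal-length lists the ectoderm class held 14 of 39 (35.9%), against 18.6%, and the Sox2-positive class 4 of 39 (10.3%), against 14.3%. The keratin shares were thus above the genome's for the ectoderm class in both forms of the lists, and close to or below it for the Sox2-positive class. The ectoderm count was 31 without ectoderm replicate 2 and the Sox2-positive count 7 without Sox2-positive replicate 1. Of the 17 ectoderm regions, 10 had no peak in any whole tooth either. These were 14.5% of the 69 regions, against 11.8% of all regions in the genome. With equal-length lists the class held 9 of 49 (18.4%), against 12.8%. The 10 of the full lists belonged to Krt19, Krt8, Krt18 and Krt75 with 2 each and to Krt14 and Krt7 with 1 each. None belonged to Krt5, Krt15, Krt17 or Krt6a, but the region over the Krt6a end was in this class with equal-length lists. In the full lists, the 3 regions open in all 5 P2 libraries and in no ectoderm library were those of Krt14 at 2.39 and 14.47 kb and the inner region of Krt7. Their share was 4.35%, against 4.56% of all regions. With equal-length lists the class held 3 of 49 (6.12%), against 6.29%. There the Krt75 region inside Krt82 stood in place of the Krt7 region, which the incisor no longer had. Both shares were close to those of the genome.

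Molar and incisor, which have 1 library each, also differed around these genes. Both molars and not the incisor had 16 of 51 regions, or 31.4%, against 17.8% of all regions. The incisor and neither molar had 2 of 51, or 3.92%, against 13.8%. In the equal-length lists these were 10 of 35 (28.6%), against 16.3%, and 0 of 35, against 18.5%. Of the 7 regions of the full lists found in both molars and in no other library, 3 lay at Krt17, 2 at Krt7 and 1 each at Krt14 and Krt5. They were 10.1% of the 69 regions, against 6.26% of all regions. With equal-length lists the class held 5 of 49 (10.2%), against 4.83%, and lay at Krt17, Krt75 and Krt5. Of the 3 found in all whole teeth and in no other library of the full lists, 1 each lay at Krt14, Krt17 and Krt5. That was 4.35%, against 3.91% of all regions. With equal-length lists this class held 4 of 49 (8.16%), against 1.77%, and lay at Krt14, Krt75 and Krt5. The incisor was also the library in which 3 of 6 epithelial marker starts were not open, and the part of its cell makeup in these counts was not tested.

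The Sox2-positive cells come from the incisor, and 1 keratin region of both their libraries was missing from the whole incisor in the full lists. Both Sox2-positive libraries and not the incisor had 1 of 34 regions, or 2.94%, against 1.84% of all regions. The incisor and neither Sox2-positive library had 9 of 34, or 26.5%, against 29.6%. The equal-length counts were 2 of 29 (6.9%), against 7.02%, and 5 of 29 (17.2%), against 12.2%. These shares were near those of the genome in the full lists. Of the 9 incisor regions, 8 were also in both molars. The Sox2-positive count was 3 without Sox2-positive replicate 1.

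Regions with a peak in all 7 libraries were 11 of 69, or 15.9%, against 14.3% of all regions, and 9 of 49 (18.4%), against 19.2%, in the equal-length lists. In the full lists they lay at Krt8 (5 regions), Krt14 and Krt5 (2 each), and Krt17 and Krt75 (1 each). With equal-length lists Krt8 had 4 and Krt5 had 1, while Krt14, Krt17 and Krt75 kept their counts. Krt18, Krt15, Krt19, Krt7 and Krt6a had none.

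**Figure D4:**
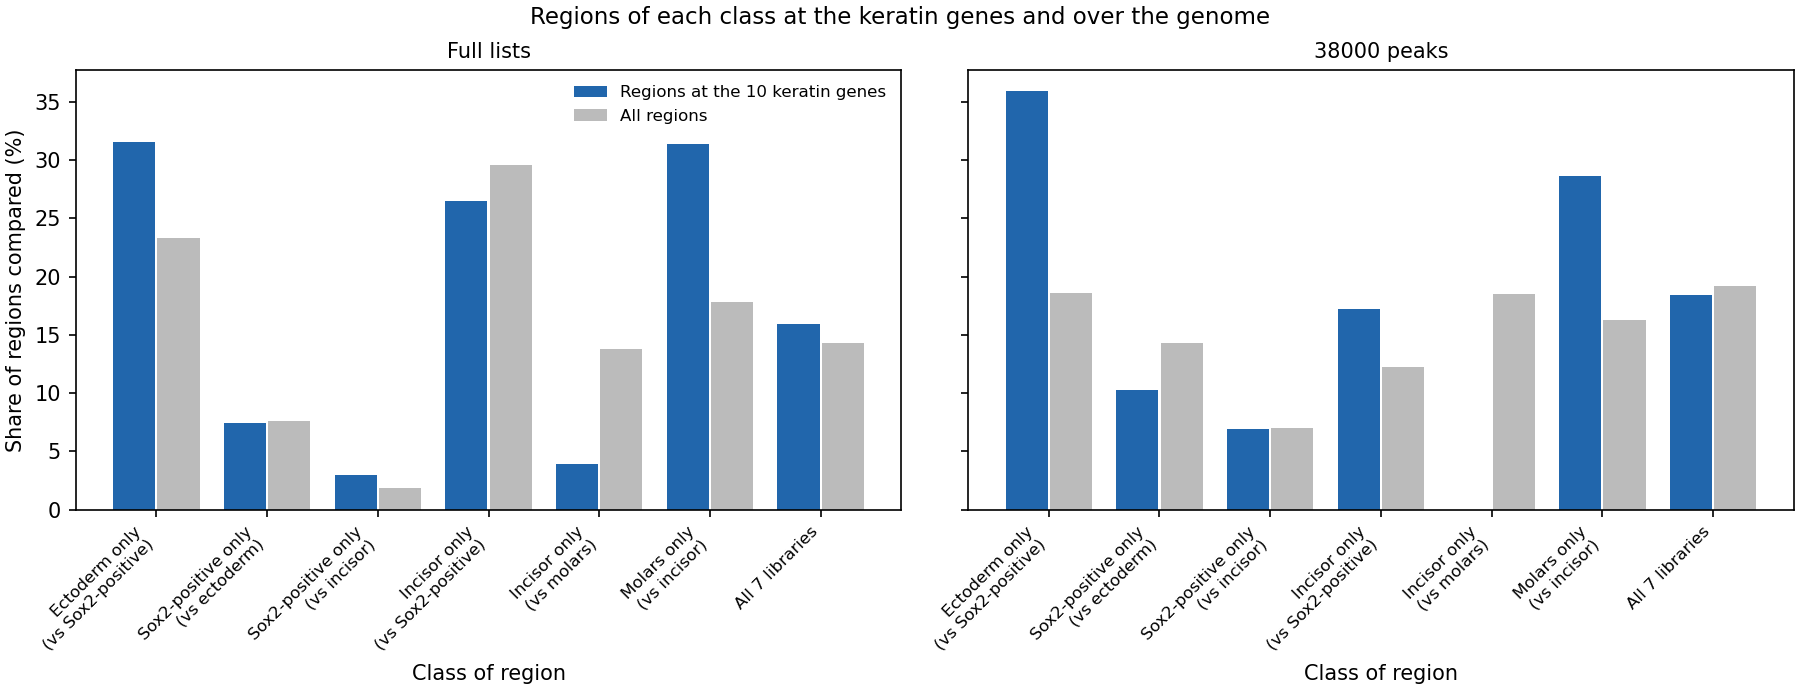
Share of regions in each class, in percent, for the keratin members and for all regions of the genome, with full lists and with 38000 peaks per library. The keratin bars stand above the genome's for the ectoderm class (31.5% against 23.3%) and the molar class (31.4% against 17.8%) and below it for the incisor class (3.92% against 13.8%).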

How the data were processed

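Peak lists of 7 ATAC-seq libraries, 1 list per library, were used as deposited. Per the submitters' processing notes, the authors used FastQC, Trimmomatic, Bowtie2, deepTools and Genrich with the build mm10, which is GRCm38. Versions, settings and read filters are not given in the sources used here. The deposited signal of a peak is the caller's area under a significance curve, the deposited significance is a −log10 p-value, and the deposited score and the q-value column were not used. Groups and replicate numbers came from the sample titles.

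Peaks were assigned to members within 20 kb, joined into regions at 1 bp of overlap, and counted with Python 3.11.15, pandas 2.3.3 and numpy 2.4.6. The counts per window, compared with those of all genes, kept a shared peak for each member. Equal-length lists held the 38000 autosomal peaks with the highest −log10 p. Gene positions and promoter windows came from RefSeq, GRCm38.p6. Depth is unknown, so no interval was computed. The counting was tested on simulated data and returned 397 of 397 regions and 1673 of 1673 window counts. All members were named, with all regions open in 7 libraries and, per direction, up to 5 regions of 1 group by mean signal rank. Other regions of a member were named after their values were seen, to describe each gene. Lists of other keratins, partners, regulators and markers of epithelium, mesenchyme, endothelium, blood, ameloblasts and dental stem cells were counted by open starts. The members and lists were chosen with earlier results of these data known. The labels do not say that replicates came from separate litters.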

Additional observations from a re-analysis of the deposited data

How the results depend on the processing

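Of 213 recomputed values, 146 stayed within 1.5 times the reported one and 67 did not. The cause was not tested beyond the construction of each alternative. With 38000 peaks per library by −log10 p, ectoderm replicate 1 had 32 member peaks, start peaks were found in 3 libraries for Krt15, 2 for Krt6a, 1 for Krt7, 0 for Krt75 and 4 for Krt8, and 1 member was open in all 7. The region counts became 2 (Sox2-positive and not incisor), 5 (incisor and not Sox2-positive), 0 (incisor and not molars) and 10 (molars and not incisor). By signal instead, ectoderm replicate 1 had 32 and incisor 20 member peaks, the starts of Krt15, Krt7, Krt75 and Krt8 gave 3, 1, 0 and 4 libraries, 2 members had more Sox2-positive peaks, and these region counts were 4, 2 and 0 for the first 3. With the 50% of each list of smallest p, member peaks were 32 and 15 in ectoderm, 12 and 12 in the Sox2-positive libraries, 19 in incisor, 32 and 29 in molars. Start peaks were then in 2 libraries for Krt15 and Krt8, 1 for Krt18, Krt19, Krt6a and Krt7 and 0 for Krt75, with 1 member open in all 7 and 0 with more Sox2-positive peaks. Regions of ectoderm and not Sox2-positive cells were 6, the reverse 2, Sox2-positive and not incisor 0, incisor and not molars 0, and all 7 libraries 6. A flank of 10 kb gave 11 ectoderm, 2 Sox2-positive and 1 incisor-and-not-molar regions. A flank of 50 kb gave 38 and 47 member peaks in the Sox2-positive libraries, 56 in incisor, 78 and 76 in molars, 5 incisor-and-not-molar regions and 20 in all 7 libraries. Dropping peaks nearer to another gene left 11 ectoderm regions, 5 incisor-and-not-Sox2-positive, 1 incisor-and-not-molar and 7 in all 7 libraries. Requiring 50% of a region to be covered left 6 in all 7 libraries and 0 of Sox2-positive cells against incisor.

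Windows of 200 bp around summits, chosen after seeing the data, gave 8 Sox2-positive regions against ectoderm, 3 against incisor, 5 incisor-and-not-molar regions and 7 in all 7 libraries. With any peak within 1 kb of either gene end as a start, also chosen after seeing the data, 4 members were open in all 7. Leaving out 1 replicate at a time, ectoderm regions against Sox2-positive cells ranged from 17 to 31 (without ectoderm replicate 2), the reverse from 4 to 7, Sox2-positive regions against incisor from 1 to 3 (both without Sox2-positive replicate 1), and members with more Sox2-positive peaks from 1 to 2. In the gene counts, Krt15 and Krt19 had more ectoderm peaks in all 11 settings and Krt8 and Krt18 in 10. These counts kept a shared peak for each member, so those of the neighbours Krt15 and Krt19 are not independent. No setting gave shared peaks to the nearest member only, a form in which the Krt15 counts overlapped. Krt17 had more Sox2-positive peaks in 9, Krt7 more ectoderm peaks in 9 and Krt75 in 4, and the Krt5 counts overlapped in 6. Krt14 had more Sox2-positive peaks in 3 settings and more ectoderm peaks in 1, the 50 kb flank. Unknown depth limits every count, and a missing peak does not show closed chromatin. No paired analysis was possible because the results come from counts of peaks and from no test.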

Other observations

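Of the 43 other keratin genes, 12 had an open start in at least 1 full list, namely Krt1, Krt20, Krt222, Krt4, Krt42, Krt73, Krt80, Krt81, Krt83, Krt86, Krt87 and Krt88. The counts were 9 and 6 in ectoderm, 3 and 3 in the Sox2-positive libraries, 5 in incisor, 4 in lower molar and 5 in upper molar. Krt80 was open in all 7 libraries, in the full and the equal-length lists. Krt1, a keratin of the upper layers of skin, was open in 6 libraries, all but Sox2-positive replicate 2, and in 4 in the equal-length lists. Krt86, a hair keratin, was open in the same 6 libraries in the full lists, and only in both ectoderm libraries in the equal-length lists. Krt83 and Krt87, hair keratins too, were open in both ectoderm libraries and in no P2 library of the full lists, and in none of the equal-length lists. Krt73, a keratin of the inner root sheath of hair, was open in Sox2-positive replicate 2 and in both molars, in both forms of the lists. With equal-length lists 6 of the 43 were open in at least 1 library, with counts of 2 and 4 in ectoderm, 2 and 3 in the Sox2-positive libraries, 1 in incisor and 3 in each molar.

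The 5 ameloblast markers, genes of enamel-forming cells, had open starts at 1 and 1 in ectoderm, 2 and 2 in the Sox2-positive libraries, 1 in incisor, 2 in lower molar and 3 in upper molar. In the equal-length lists each whole tooth had 1 and the other libraries kept their counts.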
